A study of Mus musculus with 15 samples.

Results

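The receptors that bind TGFβ, activin and BMP ligands were examined in the RNA sequencing data of mouse endometrial epithelial organoids. Members were the rows whose Ensembl identifier maps to *Tgfbr1*, *Tgfbr2*, *Acvr1*, *Acvr1b*, *Acvr2a*, *Acvr2b*, *Bmpr1a*, *Bmpr1b*, *Bmpr2* or *Acvrl1*. All 10 were found among the 16729 genes of the expression matrix, and all 10 were above the expression minimum of every test. Organoids are hollow or lobed bodies that uterine epithelial cells form when they are embedded in a gel. Control organoids came from *Smad2* flox/flox; *Smad3* flox/flox mice. *Smad2/3* cKO organoids came from mice with the same floxed alleles plus 1 Ltf-cre allele, which places Cre recombinase under the lactoferrin gene and acts in the uterine epithelium after estradiol, so that any cell in which Cre did not act keeps both genes. Each genotype was grown with DMSO vehicle or with 500 nM A83-01, which gave control + vehicle (n = 3), control + A83-01 (n = 4), *Smad2/3* cKO (n = 4, vehicle) and *Smad2/3* cKO + A83-01 (n = 4). All 4 groups were cultured with the BMP antagonist Noggin, WNT3a and R-spondin.

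Ligands of this family assemble a pair of type II receptors with a pair of type I receptors, and the type II kinase then phosphorylates the type I receptor. The type I receptors ALK5 (*Tgfbr1*) and ALK4 (*Acvr1b*) pass the signal to SMAD2 and SMAD3, whereas ALK1 (*Acvrl1*), ALK2 (*Acvr1*), ALK3 (*Bmpr1a*) and ALK6 (*Bmpr1b*) pass it to SMAD1, SMAD5 and SMAD8. *Tgfbr2* is the type II receptor for TGFβ, *Acvr2a* and *Acvr2b* are shared by activins and BMPs, and *Bmpr2* serves BMPs. A83-01 blocks the kinases of ALK4, ALK5 and ALK7, so the drug and the deletion meet the same branch at the receptor and at its SMADs. In the uterus, activin and BMP receptors are known for their roles in implantation and decidualization.

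The matrix held estimated counts per gene divided by a size factor per sample, called normalized counts below. They summed to between 20241771 and 24423127 per sample, a scaled total that does not give the sequencing depth. *Smad2*, 1 of the 2 deleted genes, gave 1335, 1132 and 1045 normalized counts in control + vehicle and 924, 863, 892 and 821 in *Smad2/3* cKO (log2 fold change -0.41 ± 0.14, SE, limma adjusted p = 0.0656). *Smad3* gave 1532, 1741 and 1599 against 1169.6, 1640.1, 1516 and 1977 (log2 fold change -0.066 ± 0.18, limma adjusted p = 0.827). Neither passed the thresholds, and counts over a whole gene do not separate the floxed exons from the rest, so the deletion itself could not be read from them. In the uterine epithelium of such mice, the authors reported loss of the floxed exons and of SMAD2 and SMAD3 protein. All 9 epithelial markers were present, with *Epcam* between 19889 and 28844. The 3 endothelial markers measured, *Pecam1*, *Cdh5* and *Vwf*, summed to at most 69.0 in any sample. *Pecam1* and *Cdh5* alone reached at most 5.75 and 27.6. The macrophage gene *Lyz2* stood out in *Smad2/3* cKO replicate 2, at 3372. The other samples of control + vehicle and *Smad2/3* cKO held 86.9 or less. In bulk RNA, fewer cells of a type and less RNA per cell cannot be told apart. By the mouse numbers in the labels, replicates 1 to 3 of the control groups came from the same 3 mice with and without A83-01. In the *Smad2/3* cKO groups 1 number is shared (*Smad2/3* cKO replicate 2 and *Smad2/3* cKO + A83-01 replicate 1), and 1 number stands in labels of both genotypes.

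The sequence before the start of a receptor gene is shown for the receptor that passed the thresholds and for those it works beside: *Tgfbr2*, its type I partner *Tgfbr1*, and *Acvr2a*, the second type II receptor by level. Each is the 250 bases upstream of the RefSeq start in GRCm38.p6, read along the gene's strand. Capitals mark GTCTG or its reverse complement CAGAC (the SMAD box), or GGCGCC, a GC-rich motif that SMADs also bind.
*Tgfbr2*, chr9:116175364-116175613, minus strand: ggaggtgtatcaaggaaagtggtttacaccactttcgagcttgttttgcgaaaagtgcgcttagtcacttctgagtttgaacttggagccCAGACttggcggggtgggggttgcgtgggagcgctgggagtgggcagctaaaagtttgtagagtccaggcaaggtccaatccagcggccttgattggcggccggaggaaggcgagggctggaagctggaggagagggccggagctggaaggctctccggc
*Tgfbr1*, chr4:47352972-47353221, plus strand: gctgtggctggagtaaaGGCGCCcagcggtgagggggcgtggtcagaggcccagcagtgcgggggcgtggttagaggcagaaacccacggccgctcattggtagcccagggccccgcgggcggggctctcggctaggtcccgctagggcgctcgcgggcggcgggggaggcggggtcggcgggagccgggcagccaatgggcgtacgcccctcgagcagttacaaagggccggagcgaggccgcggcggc
*Acvr2a*, chr2:48813859-48814108, plus strand: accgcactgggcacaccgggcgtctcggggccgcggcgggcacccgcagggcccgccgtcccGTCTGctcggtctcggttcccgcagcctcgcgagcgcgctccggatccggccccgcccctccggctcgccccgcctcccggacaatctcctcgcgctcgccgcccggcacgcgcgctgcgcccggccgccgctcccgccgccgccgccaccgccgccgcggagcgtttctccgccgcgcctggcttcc

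The *Tgfbr2* window holds CAGAC with its first base 160 bases before the start, the *Acvr2a* window holds GTCTG at 188 bases, and the *Tgfbr1* window holds no SMAD box and GGCGCC at 233 bases. A SMAD box was found on either strand in 42.2% of 32851 windows of the same length, and GGCGCC in 9.59%. RefSeq windows were given for 9 of the 10 receptors, 12 windows in all, since *Bmpr1b* has 3 and *Tgfbr1* has 2 start sites. The SMAD box was in 6 of the 12 (*Acvr2a*, *Acvr2b*, *Tgfbr2*, 1 of *Tgfbr1* and 2 of *Bmpr1b*) and GGCGCC in 3 (*Bmpr1a*, *Bmpr2* and the other of *Tgfbr1*), and no window held both. These matches describe letters in a window and name no bound site.

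Levels were compared between receptors per kb of the union of a gene's exons. *Tgfbr2* led in every group, with 1032 ± 175 normalized counts per kb in control + vehicle (mean ± SD, n = 3), above *Bmpr1a*, the broadly used BMP type I receptor ALK3, at 236 ± 32.6. *Acvrl1* (148 ± 66.5), *Acvr2a* (137 ± 30.6) and *Tgfbr1* (112 ± 31.3) came next. Their samples overlapped with those of the neighbour in this order, as did those of *Acvrl1* with *Bmpr1a*. *Acvr1b* (56.0 ± 12.1), *Acvr2b* (52.3 ± 11.8) and *Acvr1* (38.6 ± 5.21) followed without a gap among them. *Bmpr1b* (26.5 ± 3.39) and *Bmpr2* (9.50 ± 2.81) were lowest, each without overlap with its neighbours.

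Between groups, 2 receptors moved most in the order. *Acvrl1* was number 3 of 10 in control + vehicle, number 7 in control + A83-01 and number 8 in both *Smad2/3* cKO groups, where its mean per kb was 31.9 to 35.6. *Bmpr1b* was number 9 in control + vehicle and number 5 in the 3 other groups, at 44.2 to 64.3 per kb. Per kb of coding sequence, *Acvrl1* was number 5 and *Bmpr1b* number 8 in control + vehicle, so the size of these moves depends on the length used. In every group outside control + vehicle, *Bmpr2* and *Acvr1* overlapped at the bottom of the order.

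**Figure D1:**
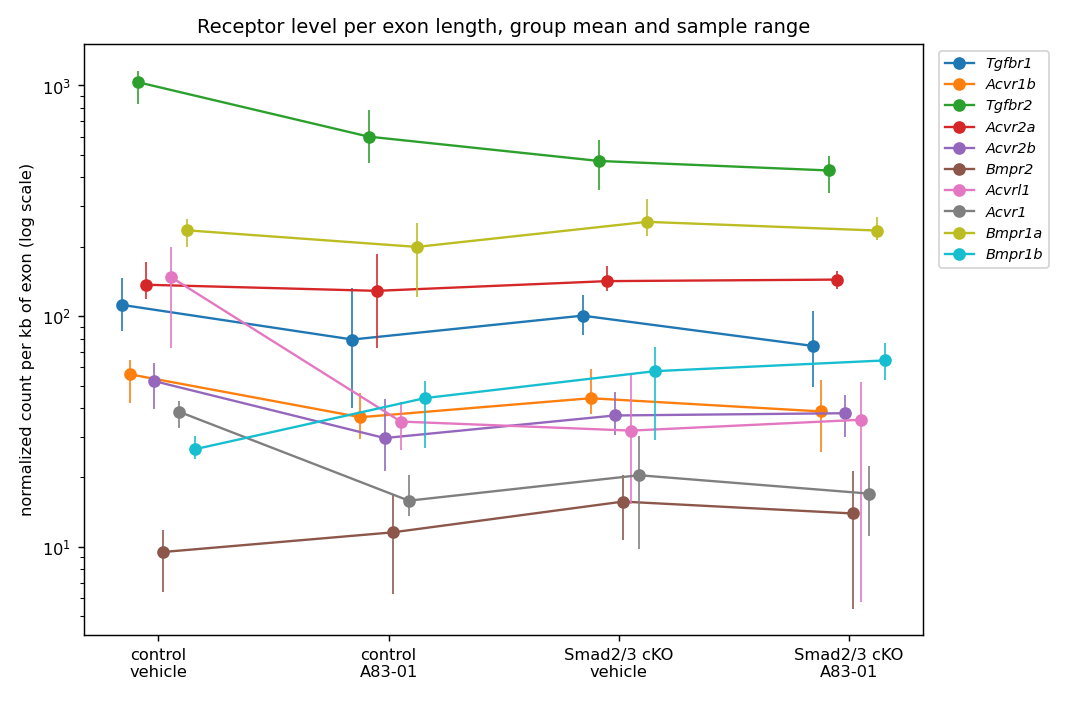
Group mean of normalized counts per kb of exon on a log axis for the 10 receptors in the 4 groups, with vertical lines from the lowest to the highest sample. *Tgfbr2* lies at 1032 in control + vehicle and at 428 to 600.3 in the other groups, and the lines of *Acvrl1* and *Bmpr1b* cross.

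Each comparison was tested by limma on all genes whose mean reached 10, and a gene passed at an adjusted p below 0.01 with a change of more than 1.4-fold in either direction. For A83-01 in control organoids, 0 of 10 receptors passed, against 2.27% of 13009 genes tested, 5 had an unadjusted p below 0.05 (22.2% of all genes), and the samples of 3 did not overlap, all lower (11.5% of all genes lower in this way). For *Smad2/3* deletion with vehicle, *Tgfbr2* was the 1 receptor of 10 that passed, against 7.38% of 13149 genes (3.3% lower), 5 had an unadjusted p below 0.05 (33.7%), and 3 did not overlap, all lower (16%). The counts past the thresholds, 0 and 1 of 10, are near the background. The other counts are shares of only 10 genes, are given as a description, and no test of the list was run. The median log2 fold change of the 10 was -0.63 with A83-01 (all genes: -0.015) and -0.24 with the deletion (all genes: 0.0024), and 8 and 6 of the 10 values were below 0. The 3 control + vehicle samples enter both comparisons. The background itself moved with the samples. Of all genes, 295 passed with A83-01 in control organoids, but 53, 49 and 128 without control + vehicle replicates 1, 2 and 3 and 140 and 116 without control + A83-01 replicates 3 and 4. With the deletion 970 passed, but 280 and 288 without control + vehicle replicates 1 and 2 and 524 and 443 without *Smad2/3* cKO replicates 1 and 4.

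**Figure D2:**
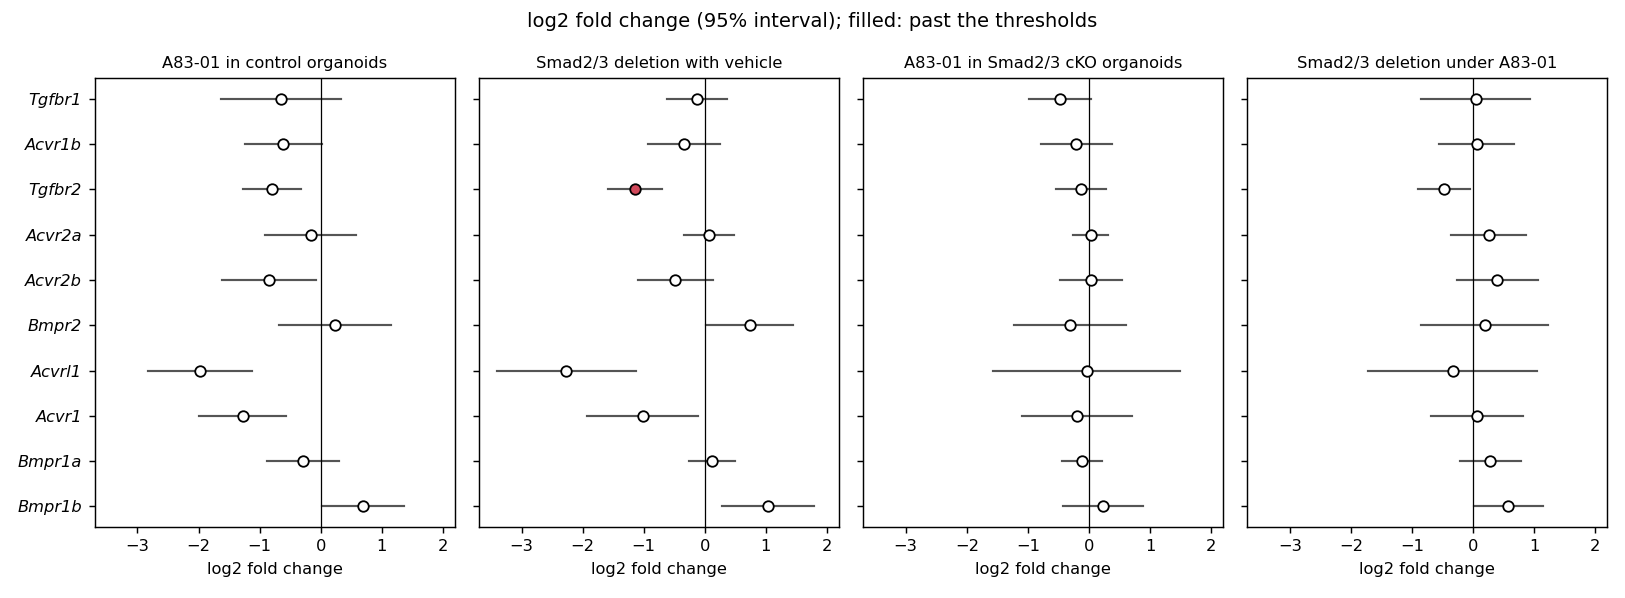
log2 fold change (x axis) of each receptor with its 95% interval in the 4 comparisons of 2 groups; filled points passed the thresholds. *Tgfbr2* at -1.14 under the deletion with vehicle is the one filled point.

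*Tgfbr2*, the type II receptor to which TGFβ binds first (chr9:116084293-116175360, minus strand, GRCm38; 8 exons in the transcript with the longest coding sequence), fell with the deletion. Normalized counts were 9069.9, 9471 and 6813 in control + vehicle and 4264, 3527, 4753 and 2875 in *Smad2/3* cKO. The lowest control + vehicle sample lay above the highest *Smad2/3* cKO sample. The log2 fold change was -1.14 ± 0.20 (SE, 95% interval -1.59 to -0.70, limma adjusted p = 0.00528), a level 0.453 times that of control + vehicle. The call was lost when 1 of 5 samples was left out: without control + vehicle replicate 1 or 2, or *Smad2/3* cKO replicate 1, 2 or 4, the adjusted p lay between 0.0110 and 0.0276 with log2 fold changes of -1.20 to -1.01. Without the trend in the eBayes step the adjusted p was 0.0195, so this call was lost there too. Markers of other cells were read beside it. Over the 4 smooth muscle genes measured, of 6 listed, the summed level was 73.9 to 219 in control + vehicle and 36.7 to 62.9 in *Smad2/3* cKO, and *Acta2*, at 176, 101 and 53.6 against 4.74 to 21.0, passed the thresholds as lower, whereas *Tagln* averaged 25.7 and 35.5 and did not pass, so *Acta2* carried this difference. The summed level of 9 epithelial markers was also lower, 164266 to 208622 in control + vehicle and 91672 to 147517 in *Smad2/3* cKO. Its largest members in control + vehicle, *Krt8*, *Krt18* and *Krt19*, averaged 47559, 50497 and 34246 there and 17780, 31023 and 10479 in *Smad2/3* cKO. Of the 9, 7 had a log2 fold change below 0 and 1 passed, lower. *Pax8* went the other way, at 4560 to 5448 and 6791 to 9801. The sum of 8 stromal markers was 37.0 to 203 and 8.63 to 43.9. The summed level of 6 leukocyte markers overlapped, at 1274 to 2592 and 1951 to 7453. Of 5 leukocyte markers tested, 2 had a log2 fold change below 0, and *Ptprc* was the 1 that passed, higher, at 12.53 to 38.5 in control + vehicle and 122.7 to 308.7 in *Smad2/3* cKO. The part of these markers in the result was not tested.

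With A83-01, control organoids held 4557, 6421, 4911 and 3768 normalized counts of *Tgfbr2*. All 4 lay below the 3 vehicle samples, and the log2 fold change of -0.79 ± 0.21 missed the threshold (95% interval -1.27 to -0.32, limma adjusted p = 0.0553). In control + A83-01 the leukocyte sum was 3181 to 8398, above every control + vehicle sample, with *Cd68* at 3024 to 8115 holding most of it. All 5 leukocyte markers tested had an unadjusted p below 0.05, 3 of them higher and 2 lower, and 0 passed the thresholds in limma. The smooth muscle sum, at 29.9 to 55.1, lay below control + vehicle, and the epithelial sum (114142 to 178503) and the stromal sum (4.79 to 58.0) overlapped with it. The part of these markers was not tested. *Smad2/3* cKO + A83-01 samples held 3190.1, 4039, 3994 and 2798, within the range of *Smad2/3* cKO apart from 1 sample just below it. The log2 fold change of A83-01 in *Smad2/3* cKO organoids was -0.13 (95% interval -0.54 to 0.28), and that of the deletion under A83-01 was -0.48 (95% interval -0.90 to -0.051, limma adjusted p = 0.469).

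**Figure D3:**
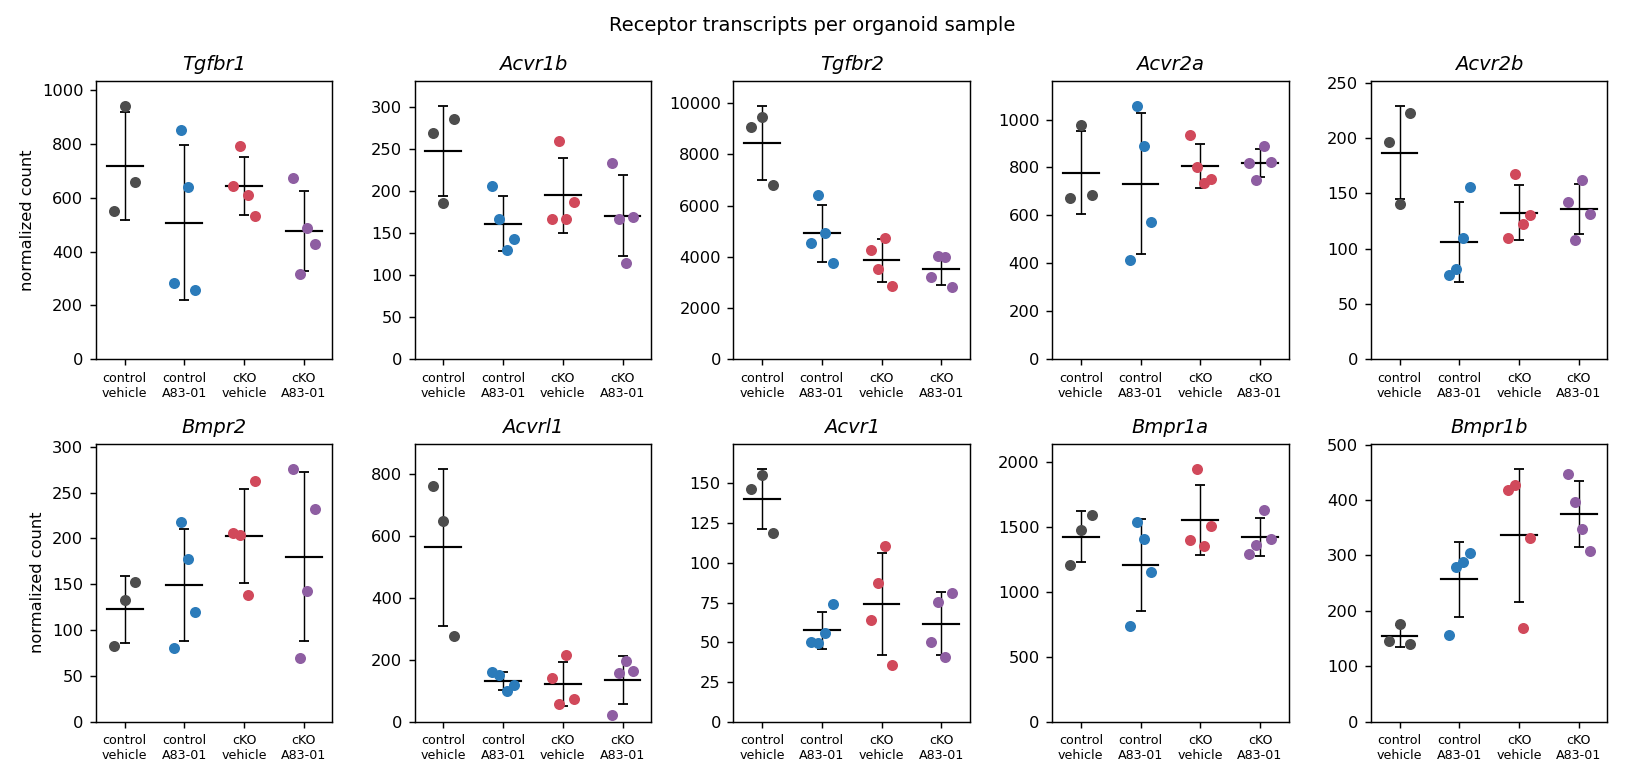
Normalized counts (y axis from 0) of each receptor in every organoid sample by group, with the group mean as a line and ± 1 SD as an error bar. The control + vehicle samples of *Tgfbr2* (6813 to 9471), *Acvrl1* (278 to 760.0) and *Acvr1* (119 to 155) lie above every sample of the 3 other groups.

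The type I receptors of the SMAD2/3 branch among the members, whose kinases A83-01 blocks, passed in no comparison. *Tgfbr1* (ALK5; chr4:47353222-47414931) gave 553, 941 and 659 normalized counts in control + vehicle, 283, 852, 640.0 and 258 in control + A83-01, 644, 791, 609.8 and 534 in *Smad2/3* cKO and 675, 316, 488 and 428 in *Smad2/3* cKO + A83-01. All groups overlapped, and control + A83-01 split into 2 samples at 283 and 258 and 2 inside the vehicle range. The log2 fold change was -0.65 with A83-01 in control organoids (95% interval -1.63 to 0.33) and -0.13 with the deletion (95% interval -0.62 to 0.36). The interval of the deletion thus runs from a value past the fold threshold for a fall to one short of that for a rise.

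*Acvr1b* (ALK4, the activin and nodal type I receptor; chr15:101174067-101213684) gave 269, 186 and 286 in control + vehicle and 205, 167, 129.8 and 143 in control + A83-01. Here the groups overlapped through control + vehicle replicate 2 and control + A83-01 replicate 1. The log2 fold change was -0.61 ± 0.28 (limma adjusted p = 0.241). *Smad2/3* cKO samples held 166, 259.9, 166 and 187 and *Smad2/3* cKO + A83-01 samples 233, 167, 114 and 169, with a log2 fold change of -0.34 for the deletion (95% interval -0.93 to 0.25).

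Of the type II receptors that activins and BMPs share, *Acvr2a* was the most even across groups. It gave 672, 979 and 684 normalized counts in control + vehicle, 412, 1055, 891 and 570.1 in control + A83-01, 937, 802, 734 and 754 in *Smad2/3* cKO and 817, 746, 889 and 825 in *Smad2/3* cKO + A83-01. Group medians lay between 684 and 821, and the log2 fold change of the deletion was 0.068 (95% interval -0.34 to 0.47). The last exon of *Acvr2a* overlaps *Orc4* on the opposite strand, and since the cDNA kit does not mark strand, reads of that stretch could belong to either.

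*Acvr2b* gave 196, 141 and 223 in control + vehicle and 76.3, 81.7, 109 and 156 in control + A83-01. The groups overlapped because control + A83-01 replicate 4 lay above the lowest vehicle sample, and the log2 fold change was -0.85 ± 0.34 (limma adjusted p = 0.185). *Smad2/3* cKO samples held 109.5, 168, 123 and 131 and *Smad2/3* cKO + A83-01 samples 142, 107, 162 and 131, and the deletion gave -0.48 (95% interval -1.09 to 0.13).

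*Bmpr2*, the BMP type II receptor, was the lowest of the 10 per kb of exon. Per kb of coding sequence, *Acvr1* was lowest and *Bmpr2* number 9 in every group outside control + vehicle. It gave 82.2, 133 and 153 normalized counts in control + vehicle, 80.5, 218, 178 and 120.3 in control + A83-01, 206, 203, 138 and 263 in *Smad2/3* cKO and 276, 69.7, 142 and 232 in *Smad2/3* cKO + A83-01. All groups overlapped. The deletion gave a log2 fold change of 0.73 ± 0.32 (limma adjusted p = 0.138), and A83-01 in control organoids gave 0.23 ± 0.41.

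Among type I receptors of the SMAD1/5 branch, *Acvrl1* and *Acvr1* had lower values and *Bmpr1b* higher values outside control + vehicle, none of them past the thresholds. *Acvrl1* (ALK1; chr15:101128522-101145336, plus strand) is known from endothelium, where it binds BMP9 and BMP10, and lies 28730 bases before *Acvr1b*. It gave 760.0, 649 and 278 normalized counts in control + vehicle, 162, 151, 99.7 and 118 in control + A83-01, 139.7, 58.5, 215 and 72.1 in *Smad2/3* cKO and 22.0, 157, 197 and 164 in *Smad2/3* cKO + A83-01. Control + vehicle lay above every other sample, though replicate 3 was closer to the other groups than to its own. The log2 fold change with A83-01 in control organoids was -1.98 ± 0.37 (95% interval -2.82 to -1.13, limma adjusted p = 0.0163). With the replicate number as a block, which follows the mouse numbers these 2 groups share, it was -1.93 and passed (limma adjusted p = 0.00651). Control + A83-01 replicate 4 contributes nothing to that fit because it has no partner. Without control + vehicle replicate 3, the log2 fold change was -2.42 and *Acvrl1* passed as well (limma adjusted p = 0.00667). Without any other single sample it did not pass, with limma adjusted p-values of 0.0215 to 0.0862, the highest without control + vehicle replicate 1 (0.0801) or 2 (0.0862), and with all 4 groups in the fit it was 0.0628.

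For the deletion with vehicle, *Acvrl1* had a log2 fold change of -2.27 ± 0.50 (95% interval -3.41 to -1.13, limma adjusted p = 0.0150). It passed without *Smad2/3* cKO replicate 3 (-2.60, limma adjusted p = 0.00741), and without replicate 2, the sample high in *Lyz2*, it was -1.99 (limma adjusted p = 0.0303). Without control + vehicle replicate 1 or 2 the adjusted p was 0.0686 and 0.0630, and under the replicate block 0.0744. Summed over the 3 endothelial markers measured (*Pecam1*, *Cdh5* and *Vwf*, of 8 listed), control + vehicle samples ran from 19.8 to 39.4. The control + A83-01 samples ran from 12.8 to 69.0, those of *Smad2/3* cKO from 22.6 to 39.9 and those of *Smad2/3* cKO + A83-01 from 32.1 to 61.2, so these ranges overlapped. *Pecam1* was listed at 0 in all 4 control + A83-01 samples. Of the 3 markers, 1 reached the minimum mean in each comparison with control + vehicle. The part of these markers in the *Acvrl1* values was not tested. The annotation places an antisense gene over exons of *Acvrl1*, *Gm16031*, which was not analysed here.

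*Acvr1* (ALK2, a BMP and activin type I receptor; chr2:58388644-58567157, minus strand) gave 147, 155 and 119 normalized counts in control + vehicle and 50.5, 49.4, 56.1 and 74.4 in control + A83-01. The groups did not overlap, and the log2 fold change was -1.28 ± 0.31 (limma adjusted p = 0.0424). *Smad2/3* cKO samples held 63.7, 87.3, 110.4 and 35.5, also below every control + vehicle sample (log2 fold change -1.01 ± 0.40, limma adjusted p = 0.112). *Smad2/3* cKO + A83-01 samples held 49.9, 75.5, 40.5 and 81.3, within the range of *Smad2/3* cKO.

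*Bmpr1a* (ALK3) had overlapping groups throughout. It gave 1207, 1475 and 1593 in control + vehicle, 733, 1538, 1404 and 1154 in control + A83-01, 1401, 1945, 1351 and 1504 in *Smad2/3* cKO and 1289, 1359, 1632 and 1404 in *Smad2/3* cKO + A83-01. The highest value was that of *Smad2/3* cKO replicate 2 and the lowest that of control + A83-01 replicate 1. The log2 fold change was -0.28 with A83-01 (95% interval -0.87 to 0.30) and 0.12 with the deletion (95% interval -0.26 to 0.49), so the interval for the deletion crosses the 1.4-fold threshold at its upper end only. An antisense gene over exons of *Bmpr1a*, *Gm17110*, was not analysed here.

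*Bmpr1b* (ALK6, a BMP type I receptor with narrower expression than *Bmpr1a*; chr3:141837136-142169425, minus strand) gave 146, 177 and 140.4 normalized counts in control + vehicle and 156, 279, 288 and 305 in control + A83-01. Of the latter, 3 samples lay above all vehicle samples and 1 among them (log2 fold change 0.69 ± 0.30, limma adjusted p = 0.212). *Smad2/3* cKO samples held 418, 427, 169 and 332, with replicate 3 inside the vehicle range (log2 fold change 1.04 ± 0.33, limma adjusted p = 0.0597). Without that replicate *Bmpr1b* passed, at 1.34 (limma adjusted p = 0.00659), and without any of the other 6 samples in turn it did not (limma adjusted p = 0.102 to 0.154). *Smad2/3* cKO + A83-01 samples held 447, 395.7, 347 and 309, the one group of *Bmpr1b* values wholly above control + A83-01 (log2 fold change 0.57 ± 0.25, limma adjusted p = 0.521).

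By the mouse numbers in the labels, control organoids of 3 mice were grown with and without A83-01, which allows each mouse to be read against itself. The number of replicate 1 also stands in a *Smad2/3* cKO label, so the labels alone do not settle which animals these were. *Acvrl1* in A83-01 stood at 0.213, 0.233 and 0.359 of its level with vehicle in the mice of replicates 1, 2 and 3. *Acvr1* stood at 0.344, 0.318 and 0.472, *Acvr2b* at 0.388, 0.580 and 0.490, and *Tgfbr2* at 0.502, 0.678 and 0.721. *Acvr1b* and *Tgfbr1* were lower in 3 of 3 mice too, though *Tgfbr1* in the mouse of replicate 3 stood at 0.971. *Bmpr1b* was higher in 3 of 3, at 1.07, 1.58 and 2.05 times its level with vehicle, and *Acvr2a*, *Bmpr1a* and *Bmpr2* differed in sign between mice. How many of all genes had the same sign in 3 of 3 mice was not counted, so these values are a description.

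**Figure D4:**
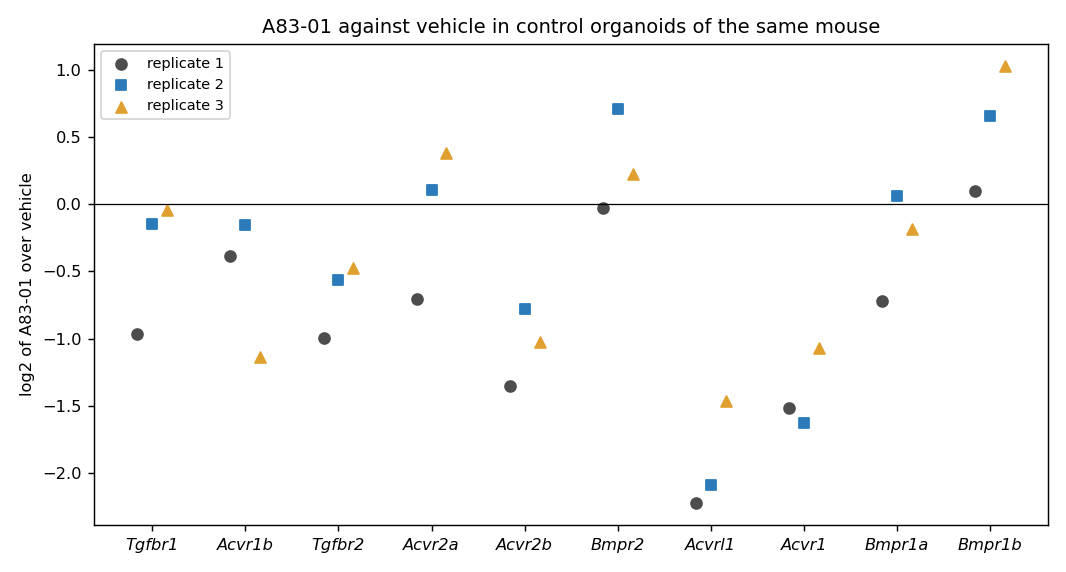
log2 ratio of A83-01 over vehicle (y axis) in control organoids of the mice of replicates 1, 2 and 3 for the 10 receptors. *Acvrl1* runs from -2.22 to -1.47 and *Acvr1* from -1.63 to -1.07, while *Bmpr1b* runs from 0.10 to 1.03.

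The A83-01 effect was then asked in organoids of the *Smad2/3* cKO genotype. In limma, 0 of 10 receptors passed, as did 0% of 12998 genes, 0 had an unadjusted p below 0.05 (4.26% of all genes), and the samples of 0 did not overlap (2.9% of all genes). Adjusted p-values were 0.994 or higher for each of the 10, and log2 fold changes ran from -0.47 for *Tgfbr1* (95% interval -0.99 to 0.041) to 0.23 for *Bmpr1b* (95% interval -0.42 to 0.88). For *Tgfbr2* the interval ran from -0.54 to 0.28, whereas for *Acvrl1* it ran from -1.57 to 1.496, and *Smad2/3* cKO + A83-01 replicate 1 stood at 22.0 and the other 3 samples between 157 and 197.

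Between genotypes under A83-01, 0 of 10 receptors passed in limma (0.0232% of 12915 genes), 2 had an unadjusted p below 0.05 (*Tgfbr2*, lower, and *Bmpr1b*, higher; 9.52% of all genes), and 1 did not overlap (*Bmpr1b*; 3.38% of all genes higher in this way). Whether the A83-01 effect differed between genotypes was tested as an interaction over all 15 samples. None of the 10 passed (0.551% of 13066 genes), and 3 had an unadjusted p below 0.05 (14.3% of all genes). These were *Tgfbr2* at 0.67 ± 0.29 (SE, log2, limma adjusted p = 0.298), *Acvr2b* at 0.88 ± 0.39 (limma adjusted p = 0.314) and *Acvrl1* at 1.94 ± 0.89 (limma adjusted p = 0.336). So the smaller A83-01 values in *Smad2/3* cKO organoids were not shown to differ from those in control organoids.

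The makeup of the receptor pool was described by each receptor's share of the summed level per kb of its class. Of the type II sum, *Tgfbr2* held 83.7% ± 2.5 in control + vehicle (SD, n = 3), 78.1% ± 4.6 in control + A83-01, 70.2% ± 5.1 in *Smad2/3* cKO and 68.3% ± 5.1 in *Smad2/3* cKO + A83-01 (n = 4 each). Samples of both *Smad2/3* cKO groups lay below all control + vehicle samples. *Acvr2a* filled most of the remainder, at 11.1% ± 1.7, 16.3% ± 3.8, 21.6% ± 3.2 and 23.3% ± 2.9. Per kb of coding sequence the share of *Tgfbr2* was 87.7% in control + vehicle and 75.9% in *Smad2/3* cKO, which kept the order of the groups.

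Of the type I sum, *Bmpr1a* held 38.5% ± 7.5 in control + vehicle and 48.2% to 50.5% on average in the other groups. *Acvrl1* held 23.7% ± 9.9 in control + vehicle, 9.1% ± 3.7 in control + A83-01, 6.5% ± 4.2 in *Smad2/3* cKO and 7.6% ± 4.3 in *Smad2/3* cKO + A83-01. *Bmpr1b* held 4.3% ± 0.2, 10.8% ± 2.4, 11.2% ± 3.6 and 13.9% ± 2.4 in the same order of groups, and its lowest sample outside control + vehicle, at 6.1%, was above the highest in control + vehicle, at 4.5%. The median ratio of *Bmpr1b* to *Acvrl1* per kb was 0.178 in control + vehicle, 1.45 in control + A83-01, 2.48 in *Smad2/3* cKO and 1.44 in *Smad2/3* cKO + A83-01. The 2 members whose kinases A83-01 blocks held shares that overlapped in all groups, *Tgfbr1* between 10.9% and 25.2% and *Acvr1b* between 5.2% and 15.7%. Shares within a sum move together by construction, and no test was run on them.

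**Figure D5:**
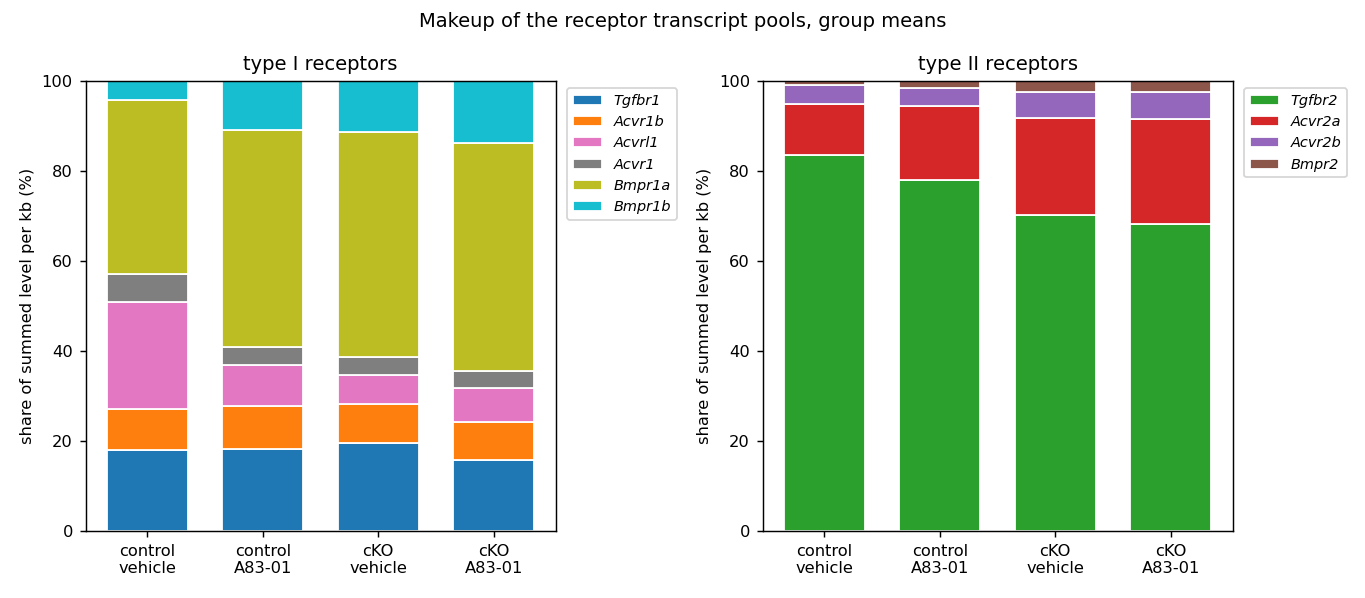
Mean share (%) of the summed level per kb that each receptor takes in its class, type I on the left and type II on the right, by group. *Tgfbr2* takes 83.7% of the type II bar in control + vehicle and 68.3% in *Smad2/3* cKO + A83-01, and *Bmpr1b* 4.3% and 13.9% of the type I bar.

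Within groups, some receptors varied together. Over the 15 samples, deviations from the group mean on the log2 scale had r = 0.83 between *Tgfbr1* and *Acvr2a*, 0.76 between *Acvr2a* and *Bmpr1a* and 0.69 between *Tgfbr1* and *Bmpr2*. The same receptors went with the sum of normalized counts in the sample, with r = -0.88 for *Acvr2a*, -0.80 for *Tgfbr1*, -0.75 for *Bmpr1a* and -0.64 for *Bmpr2*, whereas r was -0.25 for *Tgfbr2* and 0.14 for *Acvrl1*. These values describe 15 samples that share their sums, and the part of the sum in them was not tested. The within-group SD (log2) was 0.96 for *Acvrl1*, the widest of the 10, and 0.29 for *Tgfbr2*, against a median of 0.32 for the 11318 genes with means of 50 or more.

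Across all 15 samples, the genes most like *Tgfbr2* among those 11318 were *Amotl2* (Pearson r of log2 values 0.97), *Nlrc3* (0.95) and *Lurap1l* (0.95). *Amotl2*, an angiomotin family gene, averaged 3487 ± 476 normalized counts in control + vehicle, 1757 ± 335 in control + A83-01, 1581 ± 406 in *Smad2/3* cKO and 1401 ± 318 in *Smad2/3* cKO + A83-01. Its ranges in the 3 latter groups, 1007 to 2217 in all, lay below its range in control + vehicle, 2971 to 3908, as those of *Tgfbr2* did. A like pattern over the groups follows from the choice, since r was taken over all 15 samples and holds the differences between groups.

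Other receptors of the family and proteins that act beside receptors at the membrane made up a second list. Of its 16 genes, 10 were in the table and 7 were tested in the comparisons with control + vehicle. ALK7 (*Acvr1c*), whose kinase A83-01 also blocks, was listed but not measured. *Tmeff1*, a transmembrane protein with follistatin-like domains, was the 1 of 7 that passed in each, and it fell in both, where 2.27% and 7.38% of all genes passed. Its normalized counts were 715, 895 and 599 in control + vehicle, 240.5, 303, 216 and 149.7 in control + A83-01 and 159, 212, 415 and 158 in *Smad2/3* cKO. The control + vehicle samples lay above all of these, with log2 fold changes of -1.72 ± 0.28 (limma adjusted p = 0.00830) and -1.74 ± 0.34 (limma adjusted p = 0.00892). The neuropilin *Nrp1*, which binds TGFβ as well as VEGF, was at 1029, 1772 and 1043 in control + vehicle and 521, 114, 525 and 291 in *Smad2/3* cKO and did not pass (limma adjusted p = 0.0238). The BMP co-receptor *Rgma* was at 38.8 to 57.9 in control + vehicle and 2.82 to 8.02 in control + A83-01 and did not pass (log2 fold change -2.99, limma adjusted p = 0.0150). The pseudoreceptor *Bambi*, which lacks a kinase, was at 38.5 to 52.5 in control + vehicle and 63.6 to 145 in *Smad2/3* cKO (limma adjusted p = 0.101). Endoglin (*Eng*), the partner of ALK1 in endothelium, reached at most 5.77 in any sample, and betaglycan (*Tgfbr3*) at most 23.6.

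Of the regulators of receptor activity and turnover, 3 of 19 passed in each of these comparisons, all lower, where 1.08% of all genes passed as lower with A83-01 and 3.3% with the deletion. With A83-01 in control organoids these were *Pmepa1*, *Smad7* and *Dab2*, and with the deletion *Pmepa1*, *Cav1* and *Smurf1*. *Pmepa1*, which keeps SMAD2 and SMAD3 from the receptor, was at 1327, 903 and 821 in control + vehicle, 60.1, 42.1, 28.4 and 55.5 in control + A83-01 and 32.0, 178, 64.7 and 16.3 in *Smad2/3* cKO. It fell by 4.44 and 4.29 on the log2 scale (limma adjusted p = 0.000252 and 0.00375). *Smad7*, the inhibitory SMAD that brings SMURF ubiquitin ligases to ALK5, was at 191, 194 and 270.3 in control + vehicle and 10.4, 14.8, 14.9 and 20.2 with A83-01 (limma adjusted p = 0.00132). *Smurf1*, such a ligase, was at 3004, 3080.2 and 2673 in control + vehicle and 1602, 1504, 1627 and 1601 in *Smad2/3* cKO (log2 fold change -0.88 ± 0.11, limma adjusted p = 0.00156). *Cav1*, the caveolin of the raft route by which receptors are internalized, was at 2560.4, 1982 and 1139.5 in control + vehicle and 113, 9.61, 183 and 23.9 in *Smad2/3* cKO (limma adjusted p = 0.00497). Genes that passed in 1 comparison alone lay below every control + vehicle sample in the other too. With A83-01 in control organoids, *Smurf1* was at 1325 to 1941 and *Cav1* at 178 to 607. In *Smad2/3* cKO, *Smad7* was at 13.8 to 90.4 and *Dab2* at 0 to 21.1, against 45.1 to 96.9 for *Dab2* in control + vehicle.

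Among the SMADs, 5 of 6 were in the table and 0 of 5 passed in either comparison (limma; 0 and 2 had an unadjusted p below 0.05, as did 22.2% and 33.7% of all genes). Of the ligands, 14 of 18 were in the table and 6 were tested in both. *Tgfb2* rose from 129, 229 and 235 normalized counts in control + vehicle to 9135, 14802, 17364 and 13948 in control + A83-01 and 26497, 21296, 12858 and 33790.4 in *Smad2/3* cKO, log2 fold changes of 6.13 ± 0.28 and 6.86 ± 0.33 (limma adjusted p = 2.55e-05 and 2.34e-05). It was the 1 ligand of 6 that passed with A83-01 (2.27% of all genes), and with the deletion *Tgfb3* passed too (2 of 6, against 7.38% of all genes), at 1241, 1123 and 1178 against 4051, 3666, 2050.0 and 4357 (log2 fold change 1.52, limma adjusted p = 0.00388). *Inhba*, the activin A subunit, was at 70.3 to 259.7 in control + vehicle and at 19.5 or less in every sample of the 3 other groups, and did not pass (limma adjusted p = 0.0279 with A83-01 and 0.0129 with the deletion). In the interaction, *Tgfb2* was the 1 ligand of 7 tested that passed, at -5.77 ± 0.44 (limma adjusted p = 9.75e-06). With A83-01 in *Smad2/3* cKO organoids, 0 genes of these 4 lists passed in limma, and 1 of 7 co-receptors and 4 of 18 regulators had an unadjusted p below 0.05 (4.26% of all genes). For the deletion under A83-01, 0 passed too, and 2 of 6 co-receptors, 2 of 18 regulators and 2 of 6 ligands had an unadjusted p below 0.05 (9.52% of all genes).

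The median log2 fold changes of these lists were below 0 in both comparisons with control + vehicle. With A83-01 in control organoids they were -0.80 for 7 co-receptors, -0.41 for 19 regulators, -0.16 for 5 SMADs and -0.42 for 6 ligands, where all genes had -0.015. With the deletion they were -0.58, -0.42, -0.23 and -0.73 in the same order, where all genes had 0.0024.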

How the data were processed

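RNA of 15 organoid samples was made into cDNA with the SMART-Seq v4 kit and sequenced in pairs. The authors estimated counts per gene with Salmon 1.4.0 (GRCm39) and used DESeq2 1.32.0. The values the authors deposited, a signal per gene, are estimated counts over 1 size factor per sample: the median ratio to the geometric mean was 1.01 in every sample over 12745 genes above 0 in all. Whole reads were not recovered (11.3% to 23.3% of values below 12 in a sample lay within 0.02 of a whole step), so count models were not used, and since the sums carry the scaling the sequencing depth is unknown. Of 16729 genes, 16697 matched a symbol. Positions and lengths are GENCODE vM21 (GRCm38).

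log2(value + 1) was fitted with limma 3.58.1 (R 4.3.3; eBayes with trend) on the 2 groups compared, genes with a mean of at least 10, with Benjamini-Hochberg adjustment. The steps were tested on simulated data. Fold changes are on the log2(value + 1) scale. Genes named are the 10 receptors, the 3 genes most like the receptor that passed, and genes of the written lists that passed or that illustrate a role. Members and lists were chosen with earlier results of these data known. Same-numbered control samples share a mouse number in their labels and deviated together (r of deviations across genes 0.35 to 0.42 for 3 pairs). The replicate number therefore pairs them. The main fits leave this pairing out, and their p-values measure the spread between samples of a group. Those of the replicate block measure the spread left once the replicate numbers are fitted. Alternatives are given under the dependence on processing.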

Additional observations from a re-analysis of the deposited data

Results flagged for a closer look

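Among the receptors and part of the other genes named above, 84 groups of 4 samples were read for a sample far from the rest. Chance marks about 1 in 20 of such groups, and 7 held one, none of them for a receptor. *Eng*, *Amotl2*, *Cd68* and *Tagln* were among the named genes not read in this way. In *Smad2/3* cKO + A83-01 replicate 2, *Smad2* was the highest of its group at 1211 normalized counts, *Smad3* the lowest at 797 and *Bambi* the highest at 113. *Dab2* was highest at 21.1 in *Smad2/3* cKO replicate 2 and at 11.2 in *Smad2/3* cKO + A83-01 replicate 1. *Lyz2* was highest at 3372 in *Smad2/3* cKO replicate 2 and at 15.1 in control + A83-01 replicate 1.

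The A83-01 effect on *Tgfb2* differed between genotypes in the limma interaction, by -5.77 on the log2 scale (adjusted p = 9.75e-06). In control organoids the log2 fold change was 6.13, and *Smad2/3* cKO organoids were high in this ligand with vehicle as well.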

How the results depend on the processing

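For A83-01 in control organoids, the count of 0 receptors past the thresholds became 1 with the replicate block and 1 with the mouse number series (below 390 or not) as a covariate, in both cases *Acvrl1*, and 2 at an adjusted p below 0.05, and lay between 0 and 1 when a sample was left out. For *Smad2/3* deletion with vehicle, the count of 1 became 0 without the trend and 0 with the replicate block (*Tgfbr2* at -1.01, limma adjusted p = 0.0318, with *Smad2/3* cKO replicate 4 unpaired), 2 at an adjusted p below 0.05, and lay between 0 and 3 when a sample was left out. In that comparison samples of the same replicate number did not deviate together (mean r 0.056). Nor did they clearly in the *Smad2/3* cKO groups (0.13) or under A83-01 (-0.021), so the block in these comparisons stands for a number only. The mouse number that both *Smad2/3* cKO groups share stands at different replicate numbers. This check and the block therefore did not read those samples as a pair. The block changed no call of a receptor in the remaining comparisons, where 0 passed under each setting. It moved the number of all genes past the thresholds from 295 to 399, 970 to 211, 0 to 0, 3 to 0 and 72 to 63, in the order A83-01 in control, deletion with vehicle, A83-01 in cKO, deletion under A83-01 and interaction. In the same order, the mouse number series as a covariate gave 443, 920, 0, 72 and 61. The deletion under A83-01 thus went from 3 to 72 genes (0.557%), with a covariate that was not balanced there, as given below. With a sample left out, the interaction's 72 lay between 39 and 77 (under 48 without control + vehicle replicate 2, control + A83-01 replicate 4, *Smad2/3* cKO replicate 4 or *Smad2/3* cKO + A83-01 replicate 3), and the 3 of the deletion under A83-01 between 0 and 4.

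Other settings were pseudocounts of 0.1 and 10, no minimum, a minimum of 50, quantile normalization, equal sums per sample, all 4 groups in the fit and no fold threshold. Of 590 single-receptor values 573 kept direction and side, and 10 changed sign: with equal sums *Acvr2a* in the deletion with vehicle (-0.024), *Acvr2a* (-0.029) and *Acvr2b* (-0.020) with A83-01 in cKO, with a pseudocount of 10 *Acvrl1* there (0.0065), and with the mouse number series *Acvr2a* (-0.085), *Acvr2b* (-0.014), *Bmpr1b* (-0.19) and *Acvrl1* (0.19) there, and *Tgfbr1* (-0.096) and *Acvr1b* (-0.16) in the deletion under A83-01. The mouse number series was not balanced in the comparisons that hold *Smad2/3* cKO + A83-01. All samples of that group have mouse numbers below 390, while each other group has numbers on both sides. With equal sums the median of all genes for A83-01 in control was -0.12, against -0.015 as reported. Of 450 values with a sample left out, 35 changed sign, none of *Tgfbr2*. Their ranges were *Acvr2a* (-0.37 to 0.084) and *Bmpr2* (-0.031 to 0.49) for A83-01 in control, *Tgfbr1* (-0.30 to 0.080) and *Acvr2a* (-0.026 to 0.24) for the deletion with vehicle, *Acvr1* (-0.51 to 0.025), *Acvr2a* (-0.017 to 0.10), *Acvr2b* (-0.056 to 0.15), *Bmpr1b* (-0.071 to 0.37), *Bmpr2* (-0.58 to 0.080) and *Acvrl1* (-0.35 to 0.69) for A83-01 in cKO, *Tgfbr1* (-0.22 to 0.35), *Acvr1* (-0.086 to 0.24), *Acvr1b* (-0.10 to 0.24), *Bmpr2* (-0.074 to 0.58) and *Acvrl1* (-0.64 to 0.40) for the deletion under A83-01 and *Tgfbr1* (-0.090 to 0.48), *Acvr2a* (-0.058 to 0.39) and *Bmpr1a* (-0.053 to 0.30) for the interaction.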
